A study of Homo sapiens with 6 samples.

Results

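Replacement histone variants are histones that are, for the most part, made throughout the cell cycle from genes lying mostly outside the histone clusters. The genes described here are H2AFZ, H2AFV, H2AFX, H2AFY, H2AFY2, H2AFJ, H3F3A, H3F3B, H3F3C and CENPA. They and the lists below were chosen by name with earlier results of these data known. Shares and medians over all genes are therefore set beside theirs as description, not as a test. All 10 were found among the 56794 named genes of the series. RNA was measured in HEK293 cells, a human embryonic kidney line used to make recombinant protein, which in both groups expressed luciferase. The parental group had 3 libraries and the mutant group 3, the latter from the same line with CASP8AP2 deleted by CRISPR. Whether the mutant was 1 clone, and whether the libraries of a group came from separate cultures, was not given, so p-values measure only the spread between these libraries. The comparison asks how the supply of variant histone mRNA differed in cells labelled as deleted for a protein known for its part in making the 3' ends of replication-dependent histone mRNA.

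Clustered, replication-dependent histone genes give mRNA that ends in a stem-loop without a poly(A) tail, and CASP8AP2, also called FLASH, is part of the machinery that cuts it there. For replacement variants, most of their genes carry introns and give spliced, polyadenylated mRNA. The proteins can also be placed on chromatin outside S phase, several of them by dedicated chaperones. H2A.Z marks promoters, H2A.X is phosphorylated at DNA breaks, macroH2A carries a large extra domain and is linked to silent chromatin, H3.3 replaces H3 in transcribed and some repeated regions, and CENP-A defines the centromere.

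Levels are given as abundance, a length-scaled value of which the authors deposited only the mean over each group, with 1 added. That 1 was taken off again here, transcripts were summed to genes, and log2 ratios of mutant over parental were taken after 1 was added to both sums. The authors' p-values stood for single transcripts, and each gene was read by its most abundant one. Depth, estimated from the size of 1 read in each library, ran from 9190000 to 57500000 reads. CASP8AP2 itself had an abundance of 15.72 in the mutant against 15.87 in the parental group, and the smallest p-value over its 6 transcripts was 0.142 in the authors' deposited table. The position of the deletion was not given, so this level does not check the labels, and directions below are those of the libraries labelled mutant. Of 8 genes known from HEK293 cells, 8 reached an abundance of 1 in the parental and 5 in the mutant group. NEFL stood at 433.7 in the mutant against 35.7, VIM at 530.4 against 425.2 and PAX2 at 3.083 against 1.801. Among those lower in the mutant were NEFM, at 0.06898 against 8.63, INA, at 0 against 6.107, LHX1, at 0.9096 against 1.023, and EYA1, at 2.856 against 4.035. No leukocyte, hepatocyte or endothelial marker reached 1 in either group, and of 4 fibroblast markers COL1A1 did, with 5.818 in the mutant and 2.174 in the parental group. The part of these differences in the results was not tested.

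H2AFX stands apart from the other variants in its sequence. It was the only one of the 10 genes with an annotated transcript that holds the histone 3' stem-loop, searched on the sense strand as 16 bases: an arm of GGCNCT, then a loop of TTTN and then an arm of AGNGCC. In GENCODE release 29 this motif was in 58 of 206534 transcripts, or 0.0281%, and 34 of the 40 genes that hold it carry a name beginning with HIST. The H2AFX copy lies in its 3' untranslated region at chr11:119094898-119094913 on the minus strand of hg38. It is shown with the copies of a clustered H2A gene that is described below and of the clustered H2B gene HIST1H2BD, with 5 bases on each side, read 5′ to 3′ and with the motif in capitals.
H2AFX: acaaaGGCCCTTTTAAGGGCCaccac
HIST1H2AC: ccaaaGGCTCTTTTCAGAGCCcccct
HIST1H2BD: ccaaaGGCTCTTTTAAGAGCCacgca
Both annotated H2AFX transcripts run on past the stem-loop, H2AFX-202 by 1044 bases and H2AFX-201 by 821 bases. Of the clustered genes shown, HIST1H2AC-202 also runs on, by 1114 bases, whereas 39 bases follow the stem-loop in HIST1H2BD-202. The deposited values do not divide reads before the stem-loop from reads after it.

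The H3.3 protein is coded by H3F3A and H3F3B, which differ at many silent positions, and the related H3.5 by H3F3C, an intronless copy. The start of each coding sequence is shown because it decides which reads can be told apart. The first 60 bases are printed 5′ to 3′, and capitals mark bases that differ from H3F3A.
H3F3A: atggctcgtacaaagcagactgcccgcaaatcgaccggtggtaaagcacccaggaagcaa
H3F3B: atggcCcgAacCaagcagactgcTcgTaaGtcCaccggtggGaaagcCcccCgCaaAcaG
H3F3C: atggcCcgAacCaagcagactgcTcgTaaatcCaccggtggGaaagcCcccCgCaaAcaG
H3F3AP4: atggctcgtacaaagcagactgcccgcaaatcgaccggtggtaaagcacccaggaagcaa
These lie at chr1:226064352-226064411 on the plus strand, chr17:75779115-75779174 on the minus strand, chr12:31792107-31792166 on the minus strand and chr2:174719908-174719967 on the plus strand of hg38. Over the coding sequence H3F3B was 78.6% and H3F3C 77.7% identical to H3F3A, while H3F3C was 97.3% identical to H3F3B, with 11 mismatches. H3F3AP4, a processed pseudogene, was identical to H3F3A over all 411 bases, so no read within them can be given to one or the other.

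The promoters of several variants hold the CCAAT box, the letters bound by the factor NF-Y, in more copies than most promoters. They are shown for the gene with the largest difference among the 10, H2AFJ, for 2 genes with higher levels, H2AFX and H3F3B, and for the most abundant gene in both groups, H2AFZ. Each is the 250 bases before a RefSeq start on GRCh38.p14, read 5′ to 3′ along the gene, with capitals for CCAAT, for TATAAA, which is the TATA box, and for TTTGAA, found in promoters of many cell cycle genes. Matches on both strands are marked, and a match on the other strand shows the reverse complement.
H2AFJ: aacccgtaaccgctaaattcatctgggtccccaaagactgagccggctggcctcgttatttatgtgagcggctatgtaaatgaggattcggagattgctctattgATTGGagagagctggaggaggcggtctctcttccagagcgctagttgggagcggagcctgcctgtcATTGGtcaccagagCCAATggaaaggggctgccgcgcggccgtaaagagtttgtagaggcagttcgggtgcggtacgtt
H2AFX: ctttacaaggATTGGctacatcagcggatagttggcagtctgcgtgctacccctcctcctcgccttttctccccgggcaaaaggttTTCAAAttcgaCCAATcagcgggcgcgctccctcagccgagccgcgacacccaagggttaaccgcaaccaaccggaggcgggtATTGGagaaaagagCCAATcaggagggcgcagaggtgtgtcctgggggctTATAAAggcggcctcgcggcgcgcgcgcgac
H3F3B: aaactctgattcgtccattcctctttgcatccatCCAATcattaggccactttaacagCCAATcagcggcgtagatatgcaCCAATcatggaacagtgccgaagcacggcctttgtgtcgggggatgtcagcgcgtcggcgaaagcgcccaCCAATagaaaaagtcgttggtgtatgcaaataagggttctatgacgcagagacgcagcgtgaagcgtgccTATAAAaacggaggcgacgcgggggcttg
H2AFZ: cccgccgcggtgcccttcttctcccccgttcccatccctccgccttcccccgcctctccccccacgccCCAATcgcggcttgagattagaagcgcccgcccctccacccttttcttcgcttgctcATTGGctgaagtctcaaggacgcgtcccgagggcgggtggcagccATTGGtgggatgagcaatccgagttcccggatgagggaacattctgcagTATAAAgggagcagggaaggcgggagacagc
They lie at chr12:14774155-14774404 (plus strand), chr11:119095466-119095715 (minus), chr17:75779780-75780029 (minus) and chr4:99950276-99950525 (minus). A promoter was found for 9 of the 10 genes, all but H3F3C. CCAAT occurred 4 times in those of H2AFV, H2AFX and H3F3B, 3 times in those of H2AFZ and H2AFJ, and 2 times in that of CENPA. Of 35114 promoters of this length, 32% held it at least 1 time, 2.93% at least 3 times and 0.874% at least 4 times. H2AFY2 had none, H2AFY had 0 and 2 in its 2 promoters, and H3F3A had 0 or 1 in its 4. TATAAA was in the promoters of H2AFZ, H2AFX and H3F3B, against 10.7% of all, and TTTGAA in those of H2AFX and CENPA, against 13.3%. Among the genes with 4 copies of CCAAT, H2AFV was lower and H2AFX and H3F3B were higher in the mutant. In the 4 printed promoters no motif overlapped another.

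Across the 10 genes, 7 had lower and 3 had higher levels in the mutant, with a median log2 ratio of -0.40 against -0.01 over the 14856 genes whose abundance reached 1 in at least 1 group, the filter used throughout. Their summed abundance was 1501.4 in the mutant and 1769.4 in the parental group, a ratio of 0.849. None of the 10 was called at an adjusted p-value under 0.05 in the authors' deposited table, where 0.0404% of all genes were called, 0.0269% as lower and 0.0135% as higher. At an unadjusted p-value under 0.05 the same table held 5 of the 10, against 13.8% of all genes. H2AFJ, H3F3A, H2AFY2 and H2AFY were the 4 lower ones, against a background of 8.53% lower, and H3F3C was the higher one, against 5.27%. All 10 passed the filter on low values, so it removed no member. H2AFJ passed only through the parental group, which by itself fixes its direction as lower, so it adds no support to these counts. Single libraries were recovered for H2AFY2 alone, so the other genes have group means without an SD. In bulk RNA, fewer cells with a message and less of it per cell cannot be told apart for any of these genes.

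**Figure D1:**
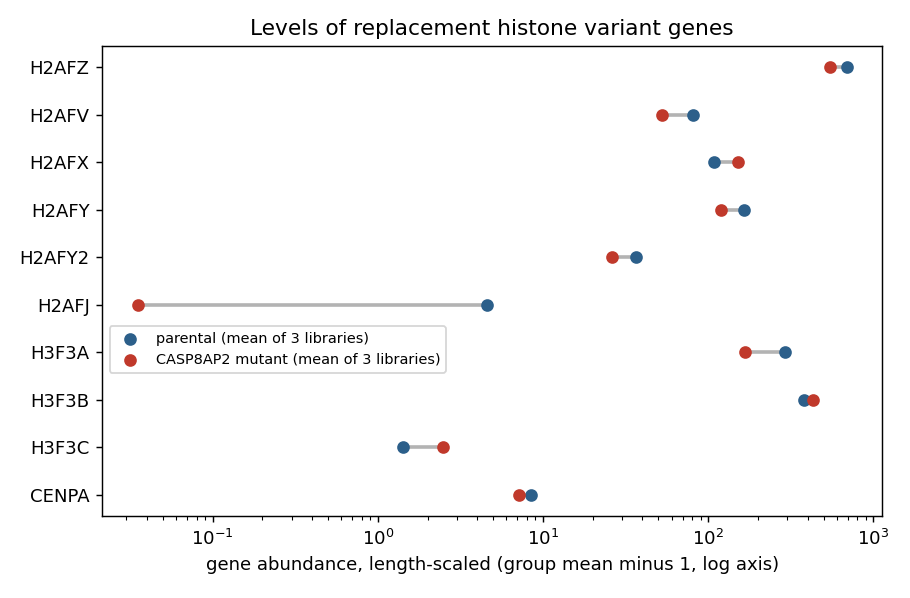
Abundance of the 10 variant genes on a log axis, with 1 point for the mean of the 3 parental libraries (blue) and 1 for the mean of the 3 mutant libraries (red). H2AFJ stands at 0.03518 in the mutant against 4.591, whereas the other 9 genes lie within a factor of 2 of their parental level.

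The plot of levels orders the genes over a wide range. H2AFZ was the highest in both groups, followed by H3F3B. In the parental group H3F3A, H2AFY, H2AFX and H2AFV came next. In the mutant the order of the next genes was H3F3A, H2AFX, H2AFY and H2AFV, so H2AFX and H2AFY changed places. H2AFY2, CENPA, H2AFJ and H3F3C were lower than these in both groups.

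H2A.Z is coded by H2AFZ and H2AFV, whose proteins differ at a few residues and are both exchanged into promoter nucleosomes by the SRCAP and p400 complexes. H2AFZ (chr4:99948086-99950388, minus strand) had an abundance of 544.1 in the mutant and 690.4 in the parental group, a log2 ratio of -0.34. Its main transcript H2AFZ-201 stood at 425.7 against 535.7, with an unadjusted p-value of 0.128 and an adjusted one of 0.703 in the authors' deposited table. An approximate SE, worked back from that p-value with 4 degrees of freedom, was 0.17 for its log2 ratio of -0.33. Such an SE takes the ratio of group means for the mean log difference; for H2AFY2, where single libraries were recovered, it came to 0.14, as did the exact one. All 5 H2AFZ transcripts above the filter were lower in the mutant. H2AFZ-203, H2AFZ-204 and H2AFZ-202, annotated as retaining an intron, stood at 44.26 against 55.71, 30.57 against 33.56 and 13.57 against 14.72, and the noncoding H2AFZ-206 at 29.93 against 50.39. Retained-intron models held 16.3% of H2AFZ abundance in the mutant and 15.1% in the parental group.

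H2AFV (chr7:44826791-44848083, minus strand) was lower by more, at 52.69 in the mutant against 80.89, a log2 ratio of -0.61. Its 2 most abundant models, both coding, differed in their p-values. H2AFV-202, the most abundant, stood at 21.68 against 31.34 with a p-value of 0.602 in the authors' deposited table. H2AFV-201 stood at 16.23 against 26.79, a log2 ratio of -0.69, and its p-value in the authors' deposited table was 0.00987, with an adjusted value of 0.57. H2AFV-204 stood at 6.523 against 13.54, H2AFV-203 at 7.044 against 7.129 and H2AFV-205 at 0.5282 against 1.592. All 5 were lower in the mutant. The SE worked back in the same way was 0.15 for H2AFV-201 and 0.90 for H2AFV-202. At large p-values such an SE is unreliable. For H2AFY-215, with a p-value of 0.986 in the authors' deposited table, it came to 5.53. The check on H2AFY2, whose p-value there was 0.0274, does not cover H2AFV-202. Together the H2A.Z genes held 596.8 in the mutant and 771.3 in the parental group, a ratio of 0.774, and H2AFZ made up 91.2% and 89.5% of it.

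H2A.X, coded by H2AFX (chr11:119093854-119095467, minus strand), is the H2A variant whose tail is phosphorylated around DNA breaks. Its abundance was 151.1 in the mutant and 108.5 in the parental group, a log2 ratio of 0.47, higher than 87.4% of all genes. H2AFX-202, the single-exon model that codes for the protein, stood at 129.4 against 100.1, with a p-value of 0.174 and an adjusted value of 0.703 in the authors' deposited table and an SE of about 0.22. H2AFX-201 is spliced after the stem-loop, between its exons at chr11:119094460-119095449 and chr11:119093879-119094261, and is annotated as a target of nonsense-mediated decay. It stood at 21.65 against 8.404, a log2 ratio of 1.27, with a p-value of 0.18 in the authors' deposited table. It held 14.3% of H2AFX abundance in the mutant and 7.74% in the parental group, shares of group means that have no test. With GC and length trends over all genes removed, the log2 ratio of H2AFX was 0.28.

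MacroH2A is coded by H2AFY and H2AFY2, and its protein joins a histone fold to a macro domain, which in some forms binds ADP-ribose. H2AFY (chr5:135333900-135399914, minus strand) stood at 119.6 in the mutant against 165.1, a log2 ratio of -0.46. H2AFY-201 stood at 52.95 against 78.55 and H2AFY-202 at 29.75 against 42.53. Their p-values were 0.0275 and 0.0316 in the authors' deposited table, with an adjusted value of 0.703 for both, and their log2 ratios were -0.56 and -0.50 with SEs of about 0.17 and 0.15. H2AFY-203, a noncoding model, stood at 9.579 against 15.71 with a p-value of 0.051 in the authors' deposited table. The remaining 11 H2AFY transcripts above the filter stood between 0.9416 and 4.562 in the mutant, with log2 ratios between -0.53 and 0.25. Among them H2AFY-206, H2AFY-207 and H2AFY-211, all annotated as retaining an intron, were higher in the mutant, at 4.562 against 3.841, 3.008 against 2.513 and 2.273 against 1.769, while H2AFY-216 of the same class stood at 2.92 against 3.728. Retained-intron models held 11.1% of H2AFY in the mutant and 7.47% in the parental group.

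H2AFY2 (chr10:70052796-70112280, plus strand) had 1 tested transcript, whose group means could be turned back into whole reads in each library. The mutant libraries held 3903, 1052 and 732 reads and the parental libraries 1436, 913 and 880. In abundance the mutant libraries stood at 27.7, 28.6 and 22.5, with a mean of 26.3 ± 3.32 (SD, n = 3). The parental libraries stood at 38.4, 32.2 and 39.2, with a mean of 36.6 ± 3.82 (SD, n = 3). Every mutant library was below every parental one, and the log2 difference was -0.46 with an SE of 0.14. A two-sided exact permutation test gave p = 0.1, the smallest value that 3 libraries against 3 allow. The comparison of log2 values gave 0.0274, the p-value of the authors' deposited table, where the adjusted value was 0.703.

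**Figure D2:**
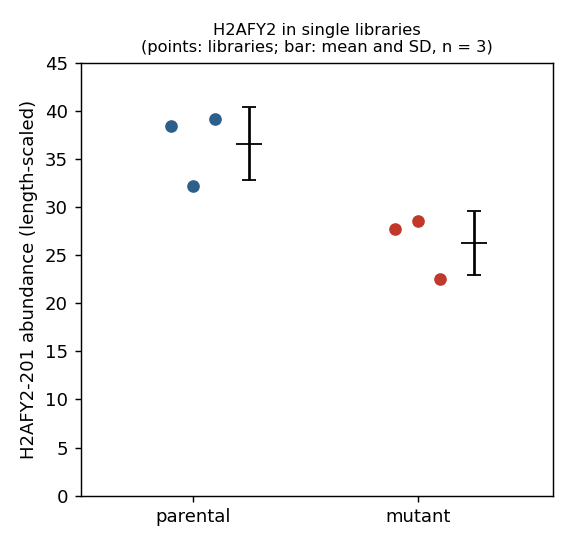
Abundance of H2AFY2 in each recovered library, as 3 points per group beside the mean with its SD, on an axis that starts at 0. The mutant libraries lie between 22.5 and 28.6 and the parental ones between 32.2 and 39.2.

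The libraries of the H2AFY2 plot carry no replicate number, since read sizes identify a library within its group but not its label. The macroH2A genes together held 145.9 in the mutant and 201.7 in the parental group, a ratio of 0.724, and H2AFY made up 82% and 81.9% of it.

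H2A.J, coded by H2AFJ (chr12:14774383-14778002, plus strand), is a mammalian H2A variant with a distinct tail that is known to accumulate in senescent cells. Its abundance was 0.03518 in the mutant and 4.591 in the parental group, the lowest log2 ratio of the 10 at -2.43, and 0.151% of all genes lay as low. The mutant mean equals 2 reads within a tolerance of 1e-05, 1 in the deepest library, 1 in another and none in the third, of about 85800000 reads summed over the group. The parental mean corresponds to between 114 and 190 reads of about 36100000. The level was 130-fold lower in the mutant, with a 95% Poisson interval of 36.1 to 1077 that covers only the counting error of the mutant reads. This interval is approximate, since it weighs the 2 reads alike, whereas in the group mean a read from a shallower library weighs more. H2AFJ-203, the single-exon coding model at chr12:14774383-14775026, stood at 0.03518 against 4.418, with a p-value of 6.59e-05 and an adjusted value of 0.12 in the authors' deposited table. Adjusted again over 1 transcript per gene, its p-value became 0.0576, which also misses 0.05. The minor H2AFJ-202 was listed at 0 in the mutant, against 0.1629, with a p-value of 0.00274 in the authors' deposited table. The log2 ratio depends on the added constant and ran from -6.67 to -2.39 over the alternatives.

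The group means of the 2 H3.3 genes went in opposite directions, but the main transcript of H3F3B had a p-value of 0.511 in the authors' deposited table. H3F3A (chr1:226061851-226072001, plus strand) stood at 166.1 in the mutant against 291.5, a log2 ratio of -0.81, and 3.25% of all genes lay as low. H3F3A-203 carried nearly all of it, at 160.3 against 285.7, with a p-value of 0.00679 and an adjusted value of 0.521 in the authors' deposited table and an SE of about 0.16. H3F3A-201 stood at 4.931 against 4.761, with a p-value of 0.848 in the authors' deposited table. The pseudogene H3F3AP4 stood at 236.4 against 414.2, also a log2 ratio of -0.81, with a p-value of 0.00164 and an adjusted value of 0.368 in the authors' deposited table. H3F3AP4 held 58.6% of the H3F3A family in both groups, and with the identical coding bases shown above these values are no independent measurements. With the pseudogenes added, the H3F3A family stood at 403.3 against 706.3, a ratio of 0.571.

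H3F3B (chr17:75776434-75785893, minus strand) stood at 431.8 in the mutant against 382.0, a log2 ratio of 0.18. Of its 8 transcripts above the filter 7 were higher in the mutant. The coding H3F3B-201 stood at 207.0 against 179.8, with a p-value of 0.511 in the authors' deposited table. Its log2 ratio was 0.20 with a worked-back SE of about 0.28, which is unreliable at large p-values. The noncoding H3F3B-213 stood at 100.4 against 110.0. The retained-intron model H3F3B-209 stood at 33.6 against 25.95 with a p-value of 0.0497 and an adjusted value of 0.703 in the authors' deposited table. H3F3B-207 and H3F3B-203, also retained-intron models, stood at 20.68 against 15.67 and 17.61 against 11.51, and this class held 16.7% of H3F3B in the mutant and 13.9% in the parental group. H3F3B-208, H3F3B-205 and H3F3B-206 stood at 30.18 against 22.36, 15.22 against 12.03 and 6.903 against 4.266.

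H3F3A made up 27.8% of the sum of H3F3A and H3F3B in the mutant and 43.3% in the parental group. With the H3F3A pseudogenes counted to H3F3A, these shares were 48.3% and 64.9%. The sum of H3F3A and H3F3B was 597.9 against 673.5, a ratio of 0.888, and with the pseudogenes 835.1 against 1088.3, a ratio of 0.767. H3F3C (chr12:31791185-31792241, minus strand) stood at 2.474 against 1.413, a log2 ratio of 0.53, with a p-value of 0.0233 and an adjusted value of 0.703 in the authors' deposited table. Its SE was about 0.15. Because H3F3C is 97.3% identical to H3F3B over the coding sequence, which of its reads came from H3F3B, a far more abundant gene, was not tested.

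CENP-A, the H3 variant of centromeres, had the smallest difference on the lower side. CENPA (chr2:26764289-26801067, plus strand) stood at 7.201 in the mutant against 8.477, a log2 ratio of -0.21. CENPA-202, its only transcript above the filter, stood at 5.058 against 6.855, with a p-value of 0.784 and an adjusted value of 0.918 in the authors' deposited table.

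**Figure D3:**
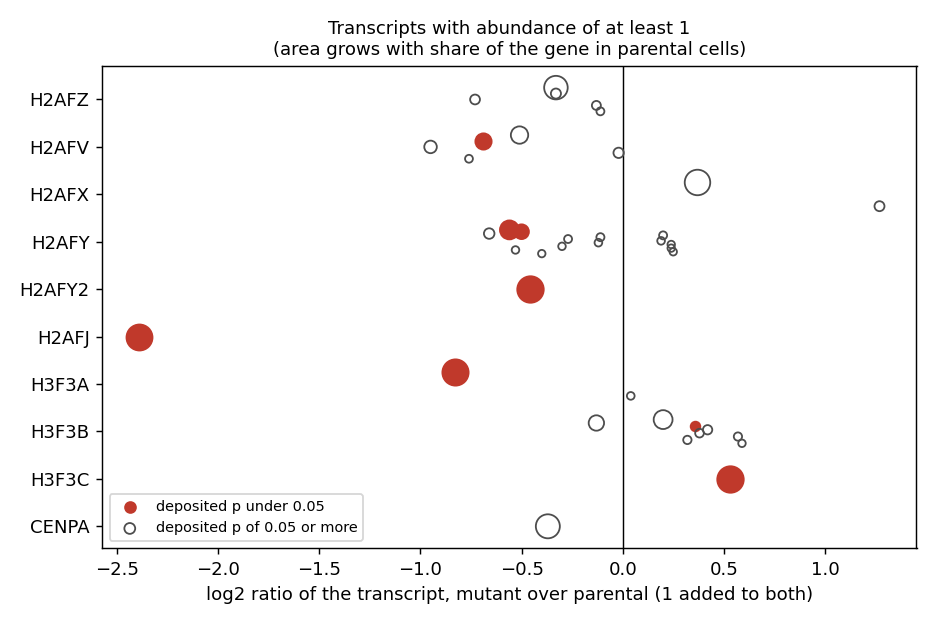
Log2 ratios of the 40 transcripts of the variant genes that reached an abundance of 1, by gene, with larger points for larger shares of the gene in parental cells. Filled red points have a p-value under 0.05 in the authors' deposited table, 6 of them lower and 2 higher in the mutant.

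By transcript, as in the plot of transcripts by gene, 24 of the 40 were lower and 16 higher in the mutant. None had an adjusted p-value under 0.05 in the authors' deposited table, against 0.0216% of all transcripts above the filter. At an unadjusted p-value under 0.05 the backgrounds were 6.01% lower and 5.78% higher.

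**Figure D4:**
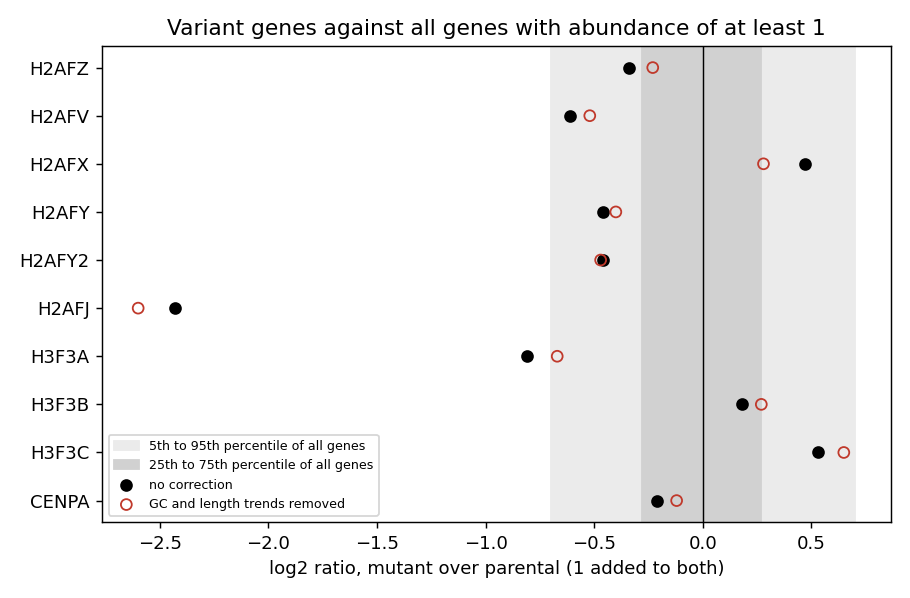
Log2 ratios of the 10 variant genes, computed from the deposited transcript means summed by gene, without correction (black) and with GC and length trends removed (open red), over bands that span the 5th to 95th and the 25th to 75th percentile of all 14856 genes. H2AFJ and H3F3A lie below the wide band without correction, and H3F3A enters it, at -0.67, with the trends removed.

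Across all genes the log2 ratio went with GC content, with a Spearman rho of 0.31 over genes, which are not independent replicates. The plot against all genes shows that no gene changed direction when this trend and that of length were removed. The median of the 10 then became -0.32.

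Clustered genes for the matching core histones give mRNA that normally ends at the stem-loop, and their group means were set beside those of the variants without a test of the group. Clustered H2A genes summed to 85.9 in the mutant and 28.11 in the parental group, and clustered H3 genes to 22.43 and 6.688, ratios of 3.06 and 3.35. No clustered gene of either list was called in the authors' deposited table. Most of the H2A sum came from HIST2H2AA3, at 30.41 against 6.71, and its near-identical copy HIST2H2AA4, at 36.66 against 14.09, whose p-values were 0.0695 and 0.169 in the authors' deposited table. HIST1H2AC stood at 11.29 against 1.772 and HIST1H2AG at 3.126 against 0.8967, with p-values of 0.0148 and 0.00507 and adjusted values of 0.634 and 0.489 in the authors' deposited table. HIST2H2AC was lower in the mutant, at 0.1842 against 1.722, with a p-value of 0.0271 and an adjusted value of 0.703 in the authors' deposited table. HIST1H2AI, the sixth H2A gene above the filter of 15 listed, stood at 1.963 against 1.149, and it and HIST2H2AA4 were named after their values had been seen.

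Of 13 clustered H3 genes 4 passed the filter. HIST1H3E stood at 4.224 against 1.298 and HIST1H3H at 4.723 against 3.016, log2 ratios of 1.18 and 0.51, with p-values of 0.00545 and 0.0113 and adjusted values of 0.498 and 0.588 in the authors' deposited table. HIST2H3A and HIST2H3C are copies of each other with the same values, 6.017 against 0.7936, and a p-value of 0.0222 in the authors' deposited table. HIST1H2AG, HIST2H3A and HIST2H3C passed through the mutant group alone and HIST2H2AC through the parental group alone, so neither a count nor a median over the genes that passed is read as a direction. Clustered genes made up 8.77% of clustered and variant H2A abundance in the mutant and 2.52% in the parental group, and 3.6% and 0.981% for H3 with H3.3. Replacement variants held most of the measured mRNA of both histones in either group. The labels do not say if the libraries were made from polyadenylated RNA, and clustered mRNA normally has no tail, so these shares cannot be read as shares of all histone mRNA.

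Factors that place the variants on chromatin were compared by lists, and none of their genes was called in the authors' deposited table. All 24 genes of H2A.Z exchange passed the filter, 9 of them higher and 15 lower in the mutant. Their median log2 ratio was -0.12. At an unadjusted p-value under 0.05 the authors' deposited table held 4 of these, or 16.7% of the 24, all lower: MORF4L1, VPS72, ZNHIT1 and ING3. Over all genes 8.53% were lower at that threshold and 13.8% differed in either direction. VPS72, the H2A.Z-binding subunit of both complexes, stood at 38.08 against 45.99, and ZNHIT1, a subunit of SRCAP, at 19.86 against 29.66. MORF4L1, a chromodomain subunit of the p400 complex, stood at 62.95 against 94.62 with a p-value of 0.0038 in the authors' deposited table, and ING3 of the same complex at 9.029 against 14.45.

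Among the 8 genes of H3.3 deposition, 5 were higher and 3 lower, and their median was 0.11. DEK, a chromatin protein that acts with H3.3, stood at 90.8 against 166.3 with a p-value of 0.0321 in the authors' deposited table. DAXX, the H3.3 chaperone that works with ATRX, stood at 19.42 against 26.8 with a p-value of 0.101 in the authors' deposited table. ASF1A, which hands H3 to the chaperones, stood at 10.56 against 13.49, and UBN1 of the HIRA complex at 8.031 against 7.196.

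The 15 kinases, phosphatases, readers and other factors around H2A.X comprised 12 lower and 3 higher genes and had a median of -0.18, while H2AFX itself was higher. PRKDC, the catalytic subunit of the DNA-dependent kinase that phosphorylates H2A.X, stood at 49.56 against 82.35, with a p-value of 0.000258 and an adjusted value of 0.212 in the authors' deposited table. BAZ1B, the kinase for the terminal tyrosine of H2A.X, stood at 24.12 against 33.21, the ubiquitin ligase RNF8 at 13.53 against 17.8 and the reader TP53BP1 at 5.88 against 6.327. The first 2 of these had p-values of 0.027 and 0.0324 in the authors' deposited table. With PRKDC, 20% of the 15 genes were lower at an unadjusted p-value under 0.05, against 8.53% of all genes.

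For CENP-A deposition and the centromere, 9 of the 15 genes had higher and 6 had lower levels, and the median log2 ratio was 0.02. CENPN, which binds CENP-A nucleosomes, stood at 17.15 against 21.23 with a p-value of 0.0222 in the authors' deposited table. CENPC, CENPU and CENPH stood at 5.749 against 3.748, 63.17 against 82.72 and 53.13 against 61.24. The 5 macroH2A partners, 3 higher and 2 lower, had a median of 0.12. None had an unadjusted p-value under 0.05 in the authors' deposited table, against 13.8% of all genes. PARP1, the main ADP-ribose polymerase, stood at 105.8 against 150.5, PARP9 at 3.462 against 3.889, PARP14 at 2.269 against 1.653 and PARG at 7.96 against 7.235.

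**Figure D5:**
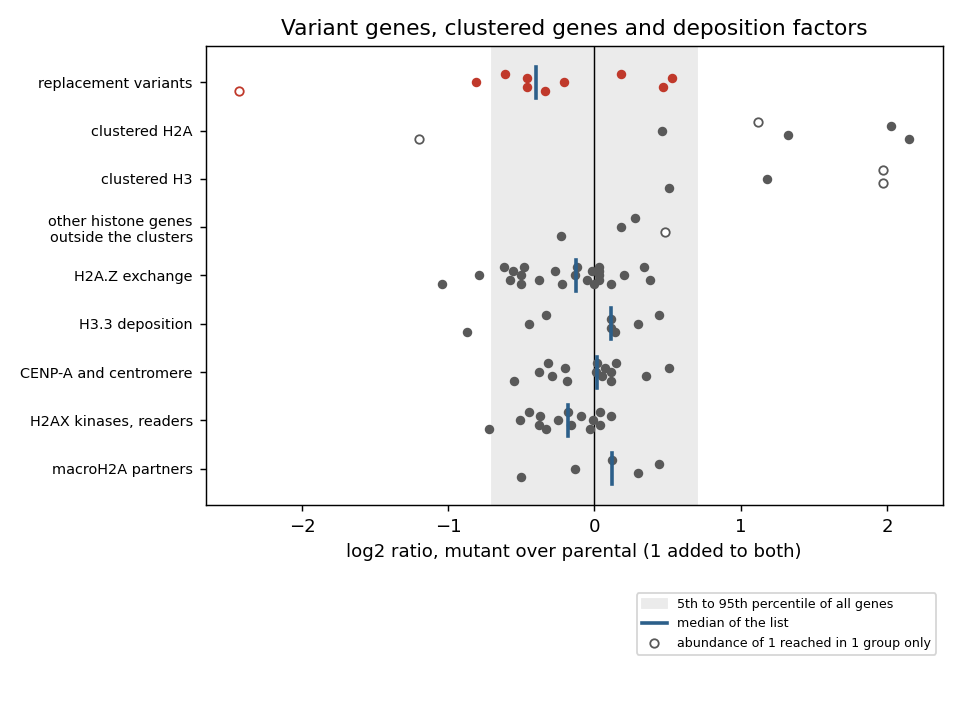
Log2 ratio of each gene above the filter, by list, with the variant genes in red, open points for genes that passed the filter through 1 group alone and the 5th to 95th percentile of all genes in grey. Blue lines are medians, drawn for the variant genes (-0.40, or -0.34 without H2AFJ, which passed through the parental group alone). Medians of the lists of deposition factors are also drawn and lie between -0.18 and 0.12. None is drawn for the other histone lists, where the filter removed genes and let others pass through 1 group.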

How the data were processed

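RNA from 6 libraries was compared, 3 parental and 3 mutant. The submitters' processing notes name bcl2fastq, STAR, Partek and the build hg38, without versions. The authors deposited 1 table of 203376 transcripts, 140552 of them tested. Its LSMean, ratio, fold change, p-value and adjusted p-value are held here as scores by the authors, and its total as a deposited signal. Group means minus 1 summed to 496162.2 in both groups. For 179 of 179 transcripts that could be turned back into whole reads, the deposited p-value followed from log2(value + 1) with 4 degrees of freedom, within 1e-06.

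Abundance was the mean minus 1, summed over a gene's transcripts, and log2 ratios used an added 1. GC and length trends were running medians over 40 bins. Python 3.11.15, pandas 2.3.3, numpy 2.4.6 and scipy 1.17.1 were used, with GENCODE 29 for positions. The steps were tested on simulated data. The design allowed for single libraries, but only group means were given, so the authors' p-values stand and no fit was made. The members and lists were chosen with earlier results of these data known. Named were all members, their transcripts and pseudogenes with an abundance of at least 1, and from each list the 4 genes with the smallest p-values of their most abundant transcript. The value of 1 cell marker is not reported here.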

Additional observations from a re-analysis of the deposited data

How the results depend on the processing

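The log2 ratios of the 10 genes kept their direction under all 64 alternatives of added constant, transcript choice, GC and length trends, centring on the median gene and pseudogenes counted to the parent gene. Many of these could not have reversed a direction. A changed constant never does, centring moves a ratio by about 0.01, and some transcript choices repeat the main value. The 64 are therefore no measure of robustness. H2AFX ran from 0.28 to 0.48, H3F3A from -0.83 to -0.67 and H3F3C from 0.53 to 0.80. The number of genes called was 0 at an adjusted p-value under 0.05 and 5 at an unadjusted one, and it was 0 under the other 6 alternatives, 1 of which, an adjustment over 1 transcript per gene, was chosen after seeing the data. The median ran from -0.40 to -0.32, and without H2AFJ, left out after seeing the data, it was -0.34. Leaving out replicates was not run, because the deposited values are group means. No paired analysis was possible because single libraries and their replicate numbers are not in those means. Depth limits H2AFJ in the mutant, with 2 reads, and less so H2AFJ in the parental group and H3F3C. H3F3C had about 277 mutant and 66 parental reads, and CENPA, also of low abundance, about 1010 and 523. The estimates for H3F3C and CENPA take the libraries of a group as equal.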

Other observations

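The region around H2AFJ was looked at after its values had been seen. Of 25 annotated genes at least partly within 500 kb, 4 others passed the filter, 3 of them lower and 1 higher in the mutant, with a median log2 ratio of -0.06. WBP11, a splicing factor, stood at 16.65 in the mutant against 22.96, with a p-value of 0.0225 and an adjusted value of 0.703 in the authors' deposited table. ATF7IP, a partner of the methyltransferase SETDB1, stood at 8.527 against 8.959 and C12orf60 at 1.004 against 1.096. RERG, the higher one, stood at 1.7 against 1.319, and its start lies 574 kb from that of H2AFJ. HIST4H4, an H4 gene 3.25 kb upstream of H2AFJ whose transcripts hold the stem-loop, stood at 0.4676 against 0.2205, under the filter in both groups.

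Of 16 other listed histone genes, most of them outside the main clusters, 14 were tested and 4 passed the filter. HIST3H2BB passed through the mutant group alone, so no count of directions is read. None of the 4 had an unadjusted p-value under 0.05 in the authors' deposited table, against 13.8% of all genes. The linker histone genes H1F0 and H1FX stood at 142.2 against 116.8 and 107.9 against 127.1. HIST3H2A, whose transcript holds the stem-loop, stood at 31.18 against 27.38, and HIST3H2BB at 1.182 against 0.5622. Pseudogenes of the H2A.Z genes above the filter were H2AFVP1, at 7.436 against 9.96, H2AFZP2, at 2.504 against 3.038, and H2AFZP3, at 2.781 against 2.88.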
